A study of Caenorhabditis elegans with 2 samples.

Results

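A set of 4 genes that act at membranes or on the cytoskeleton, unc-108, epn-1, spc-1 and klc-1, was examined for regions bound by the homeodomain protein UNC-39 in Caenorhabditis elegans. They were chosen by the readout: each had a peak of the optimal list of the ChIP-seq experiment in its gene body or within 2000 bases of a transcript 5′ end. They are 4 of 80 protein-coding genes that this rule takes, out of 19973, or 0.401%, and that share describes how they were found, with no test. The chromatin came from whole L4 larvae of strain OP186, both sexes pooled, of the genotype unc-119(ed3) III; wgIs186. The transgene wgIs186 encodes UNC-39 fused at the C-terminal end to a tag of GFP and FLAG, and the antibody is labelled unc-39. Both samples, called biological replicates 1 and 2 by the labels, carry the same mutation and transgene, and there is no other condition. How strongly the transgene is expressed, and in which cells, was not given with the samples. Regions were therefore described within lists and not compared between conditions.

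UNC-39 is the worm relative of vertebrate SIX4 and SIX5 and is known for its part in cell migration and in the development of mesoderm. The 4 genes serve different steps by which a cell moves and shapes its membranes. UNC-108 is the Rab2 GTPase, which in worm neurons is needed for the maturation of dense-core vesicles. EPN-1 is epsin, an adaptor that bends membrane and loads cargo at clathrin-coated pits. SPC-1 is alpha spectrin, the partner of the beta spectrins in the mesh under the plasma membrane. KLC-1 is a light chain of conventional kinesin, which couples cargo to the motor that walks along microtubules. ChIP-seq places a protein near DNA, and no expression of these genes was measured here.

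The DNA at the summits of 3 of the peaks is shown because the repeats in it differ between them and because the replicates supported them unequally. Each window is 201 bases long, centred on the summit, on the plus strand of WBcel235 as given by RefSeq, which is the assembly named ce11. The windows span chrX:14818821-14819021 for epn-1, chrX:3127768-3127968 for spc-1 and chrIV:11082938-11083138 for klc-1. The genes epn-1 and spc-1 lie on the minus strand and klc-1 on the plus strand. Capitals mark TGACAC and GAGAGA and CGTCTC and ACACAC on either strand.
epn-1: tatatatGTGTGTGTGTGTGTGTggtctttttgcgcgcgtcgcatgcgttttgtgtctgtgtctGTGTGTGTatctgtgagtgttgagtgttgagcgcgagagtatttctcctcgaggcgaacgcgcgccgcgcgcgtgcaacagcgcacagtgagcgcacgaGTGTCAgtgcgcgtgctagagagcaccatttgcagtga
spc-1: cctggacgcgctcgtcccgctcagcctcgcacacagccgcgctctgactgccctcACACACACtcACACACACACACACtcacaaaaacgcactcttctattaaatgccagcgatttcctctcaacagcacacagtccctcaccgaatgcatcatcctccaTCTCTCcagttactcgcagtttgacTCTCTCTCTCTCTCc
klc-1: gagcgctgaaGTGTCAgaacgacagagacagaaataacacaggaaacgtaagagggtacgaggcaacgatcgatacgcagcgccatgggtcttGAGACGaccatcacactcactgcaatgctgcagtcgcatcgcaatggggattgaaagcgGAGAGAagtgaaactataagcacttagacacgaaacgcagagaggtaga
The epn-1 window holds, near its start, a run of alternating T and G of 18 bases. The spc-1 window holds a run of alternating C and A of 15 bases and, at its far end, a run of alternating T and C of 15 bases. The klc-1 window has neither kind of long run, with at most 5 bases of the CA type and 6 of the GA type.

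Such runs were uncommon in the pooled list, the relaxed list of 30000 regions called on both replicates together. Its label names it peaks and background, so a place on it is not by itself a call of binding. Runs and short sequences were not counted over the optimal peaks as a whole, so whether they are particular to these genes was not tested. A CA-type run of at least 18 bases, as at epn-1, stood in 47 pooled windows of the same length (0.157%), and of at least 15 bases, as at spc-1, in 90 (0.3%). A GA-type run of at least 15 bases, as at spc-1, stood in 97 (0.323%). At unc-108 the longest runs were 6 bases for CA, reached in 13% of pooled windows, and 7 bases for GA, reached in 6.52%. Within these windows the long CA-type runs were at epn-1 and spc-1 and the long GA-type run at spc-1, while the longest GA-type run at epn-1 was 6 bases, as at klc-1.

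In these windows and that of unc-108, 7 short sequences were sought, reading either strand. TGACAC, a form of the site bound by the SIX4 and SIX5 family, stood in the windows of epn-1 and klc-1 and in 8.07% of pooled windows. Its matches lay 63 bases to the right of the summit of epn-1 and 90 bases to the left of that of klc-1, so within 50 bases of the summit it stood in 0 of the 4. TGATAC, the other form, stood in none of the 4 windows and in 6.84% of pooled windows. GAGAGA stood in the windows of unc-108, spc-1 and klc-1 and in 13.1% of pooled windows. It had 3 separate matches at unc-108, 6 at spc-1, of which 5 overlap within a single run, and 1 at klc-1. ACACAC stood in the windows of epn-1 and spc-1 (8.04% of pooled windows) and CGTCTC in that of klc-1 (6.79%). Over the whole deposited regions these 3 sequences stood in more of the peaks. GAGAGA was then in all 4 and in 22.9% of pooled regions. ACACAC was also in the peak of unc-108, so in 3 of the 4 and in 14.9% of pooled regions, and CGTCTC also in those of epn-1 and spc-1, so in 3 of the 4 and in 12.4%. TGACAC stayed at 2 of the 4, against 15.1% of pooled regions. The homeodomain core TAATTA (8.59%) and CGCGCAGG (0.133%), a part of the MEX motif at which the dosage compensation complex is recruited to X, were in none of the 4 windows, although epn-1 and spc-1 lie on X. A match is a run of letters and was not tested as a binding site.

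All 4 summits were rich in G and C. The share of G+C over the window was 47.3% at unc-108, 55.2% at epn-1, 54.7% at spc-1 and 50.2% at klc-1, against a median of 35.8% over pooled windows. Lower shares were found in 93.3%, 99.4%, 99.2% and 97% of pooled windows for the genes in that order. The optimal peaks as a whole had a median of 47.3%, so unc-108 sat at their middle and epn-1 above 57 of the 63. Every 32-base word of the 4 deposited regions, 369 words each, occurred at a single place in the genome.

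**Figure D1:**
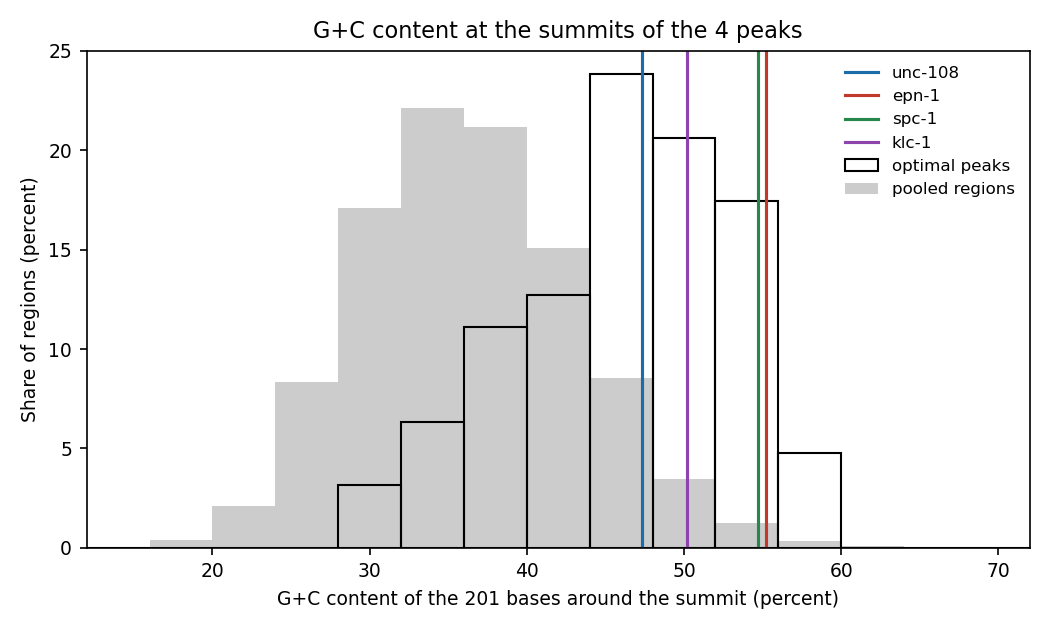
Share of G+C in the 201 bases around the summit (x axis, percent) for the pooled regions (grey bars) and the 63 optimal peaks (outlined bars), as a percentage of each list (y axis). Coloured lines mark unc-108 at 47.3%, epn-1 at 55.2%, spc-1 at 54.7% and klc-1 at 50.2%, all right of the pooled median of 35.8%.

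The 4 peaks stood at ranks 10, 19, 24 and 34 of the 63 optimal peaks. Ranks go by the signal value that the authors' peak caller gave each region, whose scale is not stated and which orders regions within a list only. The values were 38.0 at unc-108, 33.1 at epn-1, 31.6 at spc-1 and 29.5 at klc-1, against a pooled median of 7.61. The optimal list ended at 24.42, and the first pooled region outside it had 24.36, so all 4 were well inside the limit. Among listed relatives of these genes, unc-11 came nearest to it from outside, at rank 83 with 22.8. All 4 peaks were also on the optimal list of the older build ce10, at the same ranks 10, 19, 24 and 34. Their −log10 q was tied at the highest value of the list, 1.94, with 44 optimal peaks in all, and does not order them.

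The peak of unc-108 lay inside the gene, on the plus strand of I from 3822883 to 3826514 (WBGene00006833). It spanned 3824204 to 3824603. Ensembl gives unc-108 transcripts with 4 different 5′ ends. The summit lay 1521 bases downstream of the first of these, that of F53F10.4b.1, in the 2041-base intron between its exons 1 and 2. It lay 543 bases upstream of the 5′ end of F53F10.4a.1, 738 bases upstream of that of F53F10.4c.1 and 1430 bases upstream of that of F53F10.4d.1. It was thus intronic for 1 transcript and upstream of the other 3.

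A second region stood at the first 5′ end of unc-108. In the pooled list its summit was 129 bases upstream of that end, with rank 96 and a value of 22.4. Replicate 1 put the intron region first, with rank 9 and a value of 25.2, and the region at the first start at rank 309 with 12.8. Replicate 2 gave the opposite order, with rank 151 and a value of 10.4 in the intron, and rank 85 and 11.5 at the start, with its summit 24 bases upstream. The intron summits of the replicates were 6 bases apart. The replicates thus shared both places but not which of them had the higher signal value. By −log10 q the intron region was higher in both, with 1.826 against 0.8712 in replicate 1 and 2.001 against 1.751 in replicate 2. With 1 list each, neither order was tested.

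The weaker regions of unc-108 were seen less evenly. Replicate 2 had a further region 201 bases downstream of the first start at rank 1215, for which replicate 1 had no separate region. Replicate 1 had one 828 bases downstream of that start at rank 14618. Near the last 5′ end the pooled list had rank 10223 and replicate 1 rank 5482, and replicate 2 had no region there. The remaining pooled region, 1082 bases past that end, had rank 21213, and replicate 2 had a region 1828 bases upstream of the gene at rank 14217.

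The peak of epn-1 lay between genes on X. The gene runs from 14818514 to 14815798 on the minus strand (WBGene00001329), with 5′ ends 7 bases apart, and the peak spanned 14818721 to 14819120, its summit 407 bases upstream. The only other protein-coding gene within 2000 bases was mbk-1, a kinase of the minibrain family, whose 3′ end was 988 bases from the summit and whose 5′ end was 5619 bases away. Between the genes Ensembl places the short ncRNA genes T04C10.8 and T04C10.9, 60 and 66 bases from the summit and on opposite strands, and T04C10.7 at 578 bases. The summit was therefore nearer to annotated ncRNA than to epn-1 itself.

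At epn-1 the signal was spread over a stretch wider than a region. The pooled list had a second region 202 bases farther upstream, overlapping the peak by 198 bases, at rank 251 with a value of 18.2. Replicate 1 had regions on either side of the pooled summit, 98 bases nearer to the gene at rank 32 (value 19.9) and 126 bases farther away at rank 48 (17.7). Replicate 2 had none on the near side. Its region lay 246 bases farther upstream, shared 154 bases with the peak and had rank 351 and a value of 8.95. By signal value, the strongest region that replicate 2 had for epn-1 was inside the gene, 1428 bases from the nearest start, at rank 286 with 9.30. Its −log10 q was slightly lower than that of the upstream region, 1.715 against 1.732. The pooled list placed the region inside the gene at rank 25865 and replicate 1 had none there.

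The peak of spc-1 was the most even between the replicates. The gene runs from 3127079 to 3117439 of X on the minus strand (WBGene00004951), and the peak spanned 3127668 to 3128067, with its summit 789 bases upstream. No other annotated gene lay within 2000 bases of the summit. The region had rank 57 in replicate 1 with a value of 17.2 and rank 25 in replicate 2 with 14.9. The replicate summits lay 20 bases and 1 base from the pooled one. This was the only peak of the 4 among the 63 strongest regions of both replicates, a condition met by 15 of the 63 optimal peaks.

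Inside spc-1 the signal was weak. The gene is the longest of the 4, with 9641 bases, and the pooled list had 4 regions in its body, at ranks from 3722 to 19050 with values from 6.942 to 11.13. The strongest was 638 bases downstream of the nearest start. It had rank 1263 in replicate 1, while replicate 2 placed it at rank 20266. The 3 remaining body regions of the pooled list ranked from 2577 to 13719 in replicate 1 and from 15797 to 29459 in replicate 2.

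The peak of klc-1 rested on replicate 1. The gene runs from 11083735 to 11086050 on the plus strand of IV (WBGene00002214), and the peak spanned 11082838 to 11083237, with its summit 697 bases upstream of M7.2b.1 and 1067 bases upstream of M7.2a.1. In replicate 1 the region had rank 5, a value of 26.7 and the same summit. No region of replicate 2 overlapped it, and the nearest of that list was 987 bases away at rank 10110 with a value of 4.07. Among the 63 optimal peaks, 2 had no region in replicate 2, and none lacked a region in replicate 1. Whether replicate 2 had reads there is not answered by a list of regions.

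The summit named for klc-1 is shared ground. It lies between klc-1 and let-70, a ubiquitin-conjugating enzyme gene that points the other way and whose 5′ end was 785 bases off, against 697 for klc-1. The 5′ end of atg-7, an activating enzyme of autophagy, was 1983 bases away and just inside the limit of the rule. The closest annotated gene was the snoRNA M7.15, 109 bases from the summit. Position alone does not assign the peak to any of these genes.

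**Figure D2:**
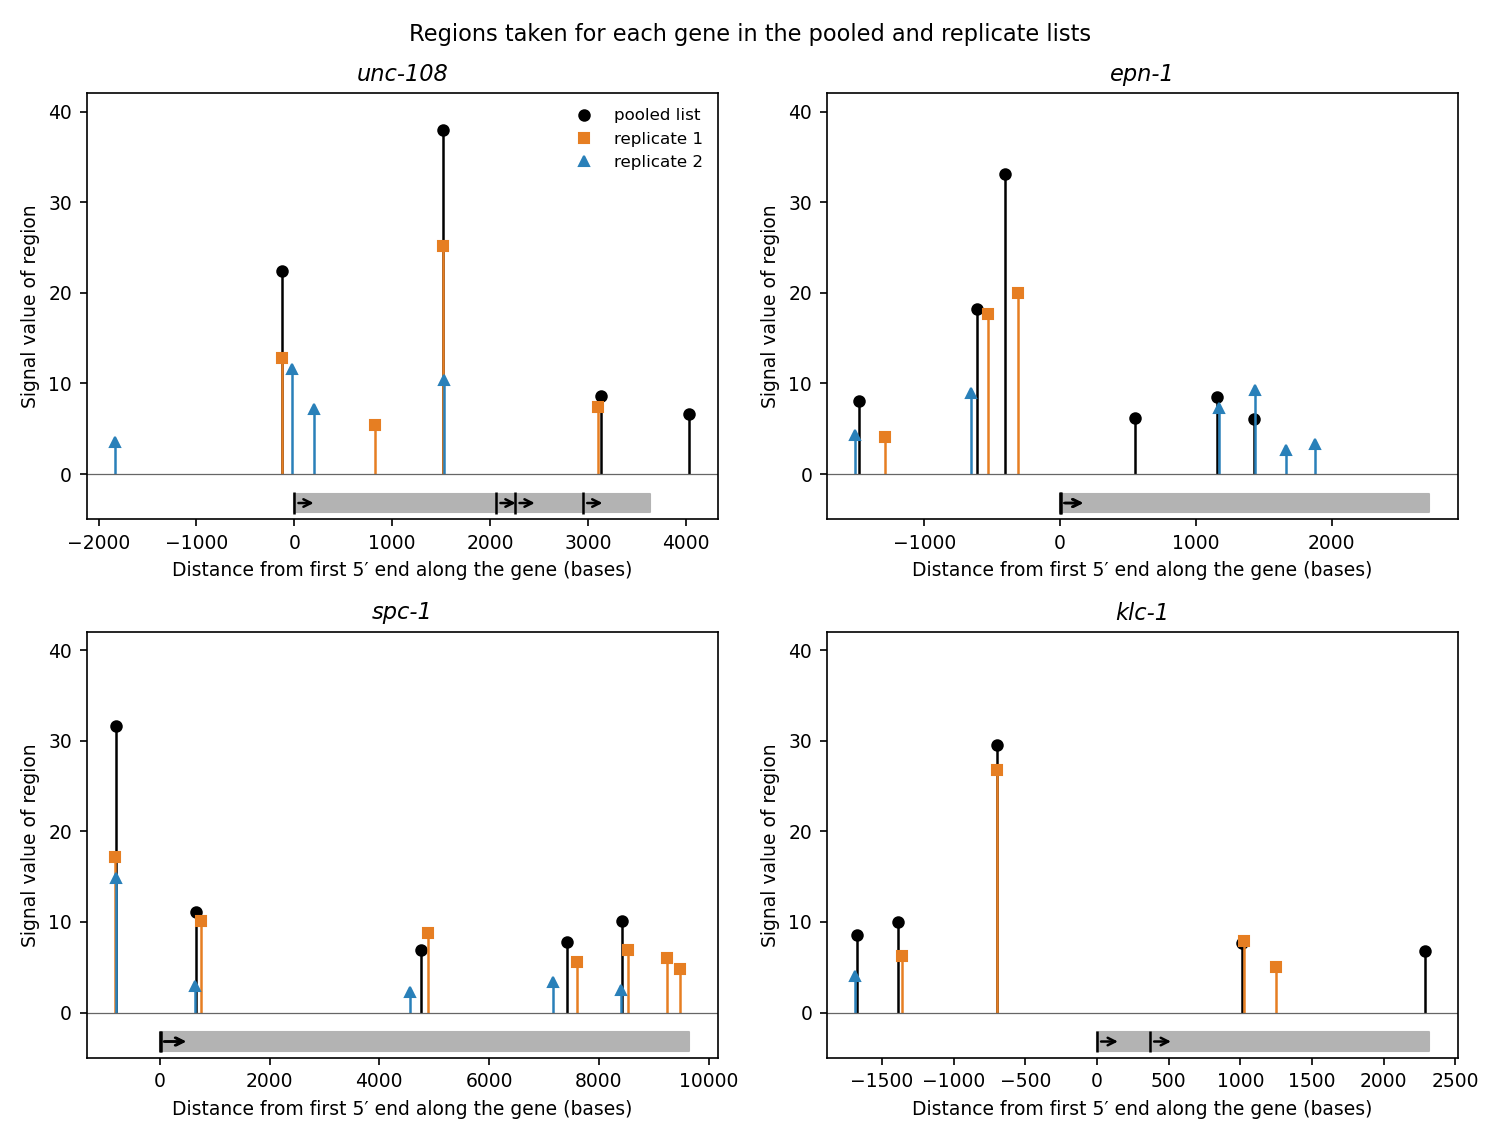
Regions taken for each gene, with distance from the first 5′ end along the direction of transcription on the x axis (bases) and the signal value of each list on the y axis. Grey bars are gene bodies and small arrows their 5′ ends. Values are comparable within a list only. The optimal peaks are the highest pooled points, at 38.0, 33.1, 31.6 and 29.5, and only klc-1 has no replicate 2 point beside it.

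The 4 genes thus differed in replicate support. In replicate 1 the ranks ran from 5 at klc-1 through 9 at unc-108 and 32 at epn-1 to 57 at spc-1. In replicate 2 the order was spc-1 at 25, unc-108 at 151 and epn-1 at 351, with klc-1 absent. All 4 were among the 63 strongest of replicate 1, where optimal peaks had a median rank of 38, and spc-1 alone among those of replicate 2, where the median was 117. The replicate lists went into the making of the optimal list, so this support is a description and no independent check.

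**Figure D3:**
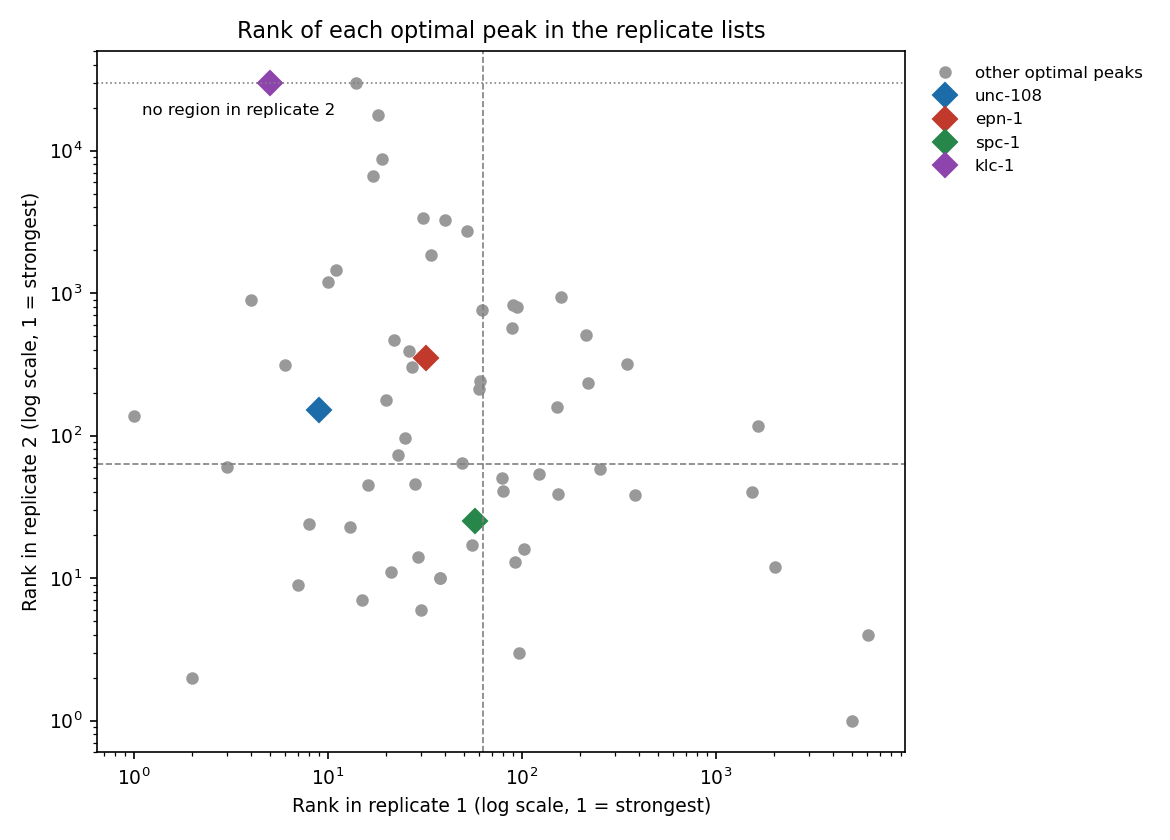
Rank of each of the 63 optimal peaks in replicate 1 (x axis) and replicate 2 (y axis), both on log scales with 1 the strongest; dashed lines stand at rank 63. Diamonds mark the 4 genes: spc-1 is at the lower left of both lines, unc-108 and epn-1 are above the line of replicate 2, and klc-1 is on the dotted line for peaks with no region in replicate 2.

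Other optimal peaks had similar pairs of ranks. Likeness was the distance between log10 ranks over the 2 replicates, with a missing region set at 30001. Nearest to epn-1 were the peaks closest to F58G1.7 (ranks 27 and 301, distance 0.0995) and to ins-39, which codes for a peptide of the insulin type (26 and 393, 0.103). Nearest to spc-1 were those of puf-9, which codes for an RNA-binding protein of the Pumilio type (55 and 17, 0.168), and serp-1.1 (80 and 41, 0.26), also both on X. For unc-108 they were that nearest to chd-7, a chromatin remodeller gene (20 and 177, 0.354), and that of F44E5.4, an Hsp70 family gene (6 and 313, 0.362). The former lay 2935 bases from the start of chd-7, so the rule does not take it for that gene. For klc-1 they were that nearest to Y37A1B.7, 10601 bases off, with rank 14 and likewise no region in replicate 2, and that of rpl-15, a ribosomal protein gene (18 and 17781), both on IV as klc-1 is. With 2 lists behind each pair, likeness describes these ranks alone.

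The surroundings of the peaks differed as well. Within 10 kb of the summit, the peak itself included, the pooled list had 10 regions at unc-108 and 10 at epn-1, against 6 at spc-1, 5 at klc-1 and a median of 7 around a pooled region. The strongest of those neighbours had rank 96 at unc-108 and 251 at epn-1, and only 3722 at spc-1 and 6101 at klc-1. The strong neighbours lay 1650 bases from the peak of unc-108 and 202 bases from that of epn-1.

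Genes of the same pathways were read in the same way, from 5 lists of 94 genes, of which 90 matched a protein-coding gene by symbol. The 4 genes above are the only listed ones with an optimal peak (4 of 90), and since they were chosen for that, nothing is read from the count. Of the other 86 listed genes, 9 (10.5%) had one of the 500 strongest pooled regions, against 572 of 19973 protein-coding genes (2.86%). Listed genes are long, with a median of 5042.5 bases against 2027 for all protein-coding genes, and gene bodies count in the rule. Without gene bodies, 6 of the 86 (6.98%) had such a region, against 2.46% of all, and the part of length in the difference was not tested. The median rank of the strongest region was 4316 over the 75 listed genes that had a region and 9610 over the 15490 protein-coding genes that had one. The medians were not taken without gene bodies. The lists were chosen with earlier results of these data known, so these shares and medians are a description with no test.

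Among 23 Rab GTPase genes, 3 had a region of the 500 strongest, against 2.86% of all protein-coding genes. That count includes unc-108, chosen for its optimal peak, and was also 3 without gene bodies (2.46% of all). After unc-108 came rab-3, whose product sits on synaptic vesicles, with rank 84 and a value of 22.8 at 1967 bases from its start, near the limit of the rule. Then came rab-7, of late endosomes, with rank 466 (16.4), though the start of W03C9.5 was nearer to that region at 187 bases, and rab-14, which acts in phagosome maturation, with rank 631 (15.6) and no region in replicate 2. At rab-3 the region ranked 787 in replicate 1 and 174 in replicate 2. The Rab2 pathway of dense-core vesicles had no further member among the 500. Its next genes were hid-1 with rank 1974 (12.7), vps-52, a tethering complex subunit gene, with 2244 (12.4), and tbc-8, a Rab GAP gene, with 4747 (10.6).

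Against a share of 2.86% of all protein-coding genes with a region of the 500 strongest, 3 of 22 clathrin endocytosis genes had one. The 3 include epn-1, which was chosen for its optimal peak. Besides epn-1 these were unc-11, the AP180 adaptor gene, with rank 83 (22.8) at 971 bases from its start, and apb-1, a beta subunit gene of the AP-1 and AP-2 adaptors, with rank 289 (17.8). The apb-1 region lay 8637 bases from that gene's start and nearer to that of gpa-17, at 1842 bases. Without gene bodies 2 of the 22 were left, epn-1 and unc-11, against 2.46% of all protein-coding genes. The region at unc-11 had rank 67 in replicate 1 and 3130 in replicate 2. The auxilin gene dnj-25 followed with rank 517 (16.1), and its region was 59 bases from the start of srxa-1.

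The 8 genes of the spectrin skeleton all had a pooled region, as did 77.6% of all protein-coding genes. The share of all protein-coding genes with a region of the 500 strongest was 2.86%. Of the 8, 4 had such a region, counting spc-1, which was chosen for its optimal peak. These were spc-1 and, with close values, the adducin gene add-2 (rank 434, 16.6), the heavy beta spectrin gene sma-1 (438, 16.6) and the ankyrin gene unc-44 (448, 16.5). The region in sma-1 lay 11646 bases from its start and nearer to that of R31.2, at 3094 bases. This list has the longest genes by median, 10072 bases. Without gene bodies 3 of the 8 were left, spc-1 included, against 2.46% of all protein-coding genes. The other beta spectrin gene, unc-70, had rank 1749 (12.97). The other genes of this list lack an optimal peak, for which spc-1 was chosen. Their values thus could not pass 24.36, and nothing is read from their standing below the 31.6 of spc-1.

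Of 26 kinesin and linker genes, 3 had a region of the 500 strongest, against 2.86% of all protein-coding genes. The 3 include klc-1, which was chosen for its optimal peak. Besides klc-1 these were klp-12, a kinesin gene, with rank 261 (18.1), and the axonal transport gene unc-76, with rank 469 (16.4) at 543 bases. The klp-12 region lay 6929 bases from that gene's start and 4477 bases from the nearest start, that of T01G1.2. It had rank 1877 in replicate 1 and no counterpart in replicate 2. Without gene bodies 2 of the 26 were left, klc-1 and unc-76, against 2.46% of all protein-coding genes. Next came klp-13 with rank 1126 (14.01), which reached rank 98 in replicate 2, while replicate 1 lacked it. The second light chain gene, klc-2, had rank 1981 (12.7), and unc-116, the heavy chain gene of the same motor, had rank 22937 (6.40). That value was below the pooled median of 7.61. The unc-116 region lay 1766 bases from its start and nearer to that of R05D3.8, at 1387 bases. The other genes of this list lack an optimal peak, for which klc-1 was chosen, so nothing is read from this contrast. The genes klc-2, unc-116 and unc-70 were picked after their values were seen, as partners of the genes above.

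**Figure D4:**
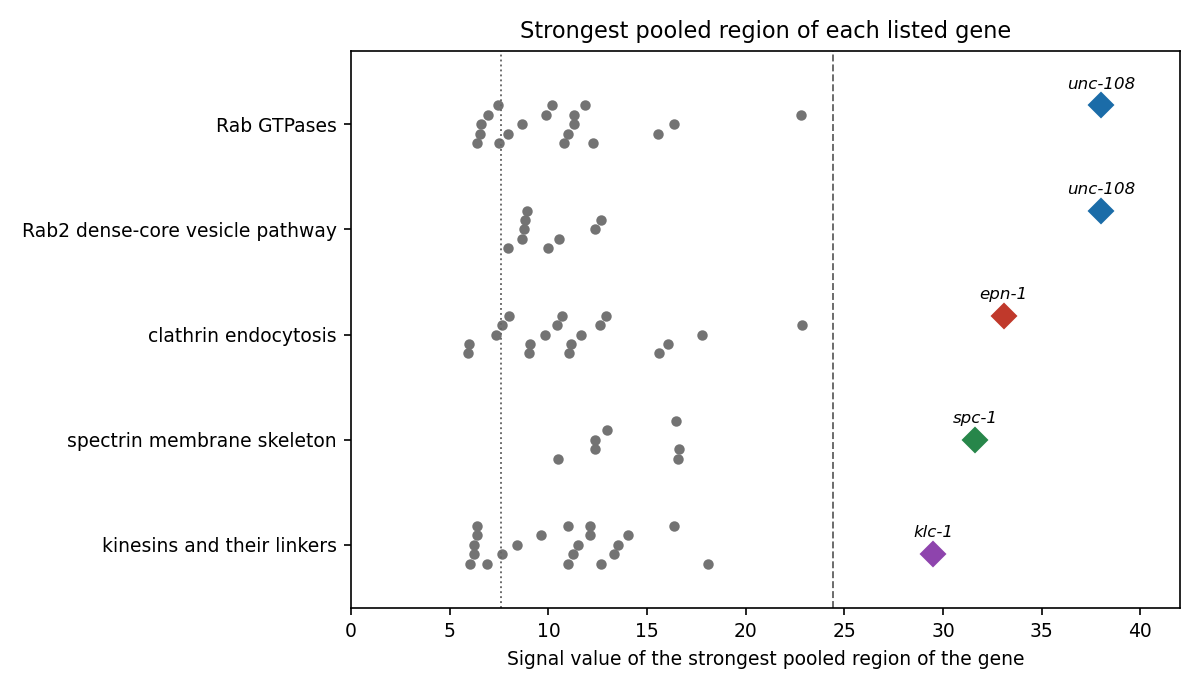
Signal value of the strongest pooled region of each listed gene (x axis) by list (rows, spread vertically for sight only). Diamonds are the 4 genes with an optimal peak; the dashed line is the last optimal peak at 24.42 and the dotted line the pooled median of 7.61. The nearest dots left of the dashed line are unc-11 and rab-3 at 22.8.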

How the data were processed

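Regions were measured by ChIP-seq in 2 samples of a single group. The deposited lists are in narrowPeak form. Per the labels and the notes with the samples, each replicate list came from that replicate's alignments and a file taken to be the control, the pooled list from both, and the optimal list from these by IDR (irreproducible discovery rate). An optimal peak need not have a region in both replicate lists, as 2 of the 63 have none in replicate 2. The signal value is a score of the authors' peak caller, and the −log10 q is also as deposited. The sources used here name no aligner, caller, IDR threshold or depth, so no depth or counting interval is stated.

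Genes and 5′ ends were those of Ensembl release 115 on WBcel235. A region was taken for a gene if its summit lay in the gene body or within 2000 bases of a 5′ end. RefSeq and Ensembl coordinates of the 4 genes differed by at most 7 bases. Regions were matched between lists by at least 1 shared base, and between builds by chromosome and a signal value within 0.01. Replicates share the file taken to be the control and were not tested against each other. Genes named are the 4, protein-coding genes within 2000 bases of their peaks, the 3 next strongest genes of each list, and the 2 peaks of most similar ranks. Members, lists and motifs were chosen with earlier results of these data known. Gene assignment was tested on planted summits. For motifs, only a presence check on either strand was run on planted sequences, and the search that gave match positions was not tested. Python 3.11.15, numpy 2.4.6, pandas 2.3.3 and matplotlib 3.10.9 were used.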

Additional observations from a re-analysis of the deposited data

How the results depend on the processing

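All 4 genes kept a peak with 5000 bases around a 5′ end, without gene bodies, on ce10 and without replicate 2, and 3 did with the stronger 31 optimal peaks. With 500 bases, 2 did (epn-1 and unc-108). Leaving out a replicate meant reading the other replicate's own list. The count was then 1 (spc-1, without replicate 1) to 4, which matches the genes among the 63 strongest regions of that list. Without replicate 1, unc-108 and epn-1 still had regions in the replicate 2 list, at ranks 151 and 351. The count of listed genes likewise ran from 1 to 4. With 500 bases, 2 listed genes were left. The 80 protein-coding genes with an optimal peak became 34 with 500 bases, 150 with 5000 bases and 36 with the stronger 31 peaks. In both replicates, 3 genes were among the 500 and among the 2000 strongest regions, against 1 among the 63 strongest. The ranks ran from 9 to 151 at unc-108 leaving out a replicate, from 32 to 351 at epn-1 and from 25 to 57 at spc-1; klc-1 had 5 without replicate 2 and no value without replicate 1. The pairs of a motif and a peak were 4 within 50 bases, with none of TGACAC left, and 12 over whole regions, against 8. Other causes were not tested. Ranks by −log10 q were not run, as all 4 peaks are tied in the optimal and pooled lists. The replicate lists do separate them. In replicate 1 spc-1 had 1.208, against 1.826 at unc-108, epn-1 and klc-1. In replicate 2 the values were 2.137 at spc-1, 2.001 at unc-108 and 1.732 at epn-1. Counting listed genes among the 500 strongest without gene bodies was chosen after seeing the data (10 against 13). No paired analysis was possible because there is a single group. With depth unknown, no limit can be given for a place without a region.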
